A study of Mus musculus with 12 samples.

Results

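The genes described here are 31 genes of fatty acid and glucose metabolism, listed by name for fatty acid oxidation, lipogenesis, ketone body formation, gluconeogenesis and fatty acid uptake. They were found by gene symbol (GENCODE M21 annotation of the mouse genome GRCm38) in a count table of 52636 gene identifiers, and all 31 were present. Bulk RNA was sequenced from livers and tumors of female FVB/NJ mice after dissociation of the tissue. All mice, controls included, carried a Fo5 tumor in the mammary fat pad, from a founder line with the HER2 gene under the MMTV promoter, which drives expression mainly in mammary epithelium; treatment began when tumors averaged 350 to 500 mm3. The dose, given once and intravenously, was either vehicle or anti-HER2/CD3 TDB at 5 mg/kg, a T cell-dependent bispecific antibody that binds HER2 with one arm and CD3 of T cells with the other, and tissues were taken 24 h later. Each tissue had 3 vehicle and 3 TDB libraries, giving 4 groups and 12 libraries, numbered 1 to 3 within a group.

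In the fasted state the liver breaks down fatty acids in mitochondria and peroxisomes, turns the acetyl-CoA formed into ketone bodies, and makes glucose from lactate, amino acids and glycerol. The nuclear receptor PPAR alpha switches on the oxidation genes and the hormone FGF21, and the coactivator PGC-1 alpha (Ppargc1a) acts with it and on gluconeogenesis. In the fed state insulin acts through SREBP-1c (Srebf1) and glucose through ChREBP (Mlxipl) to switch on the enzymes that build fatty acids. Many mammary tumors make fatty acids themselves. Severe inflammation is known to lower oxidation and gluconeogenesis genes in liver.

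Library depth was 18460159 to 25542980 counts in liver and 20796764 to 29396324 in tumor. Levels are counts scaled to library size (CPM) with TMM scaling within a tissue, and antibody effects are log2 fold changes of TDB over vehicle with a standard error (SE), tested with edgeR and adjusted over all genes tested in the tissue. A gene was called at an adjusted p under 0.05. Values joined by "against" give the vehicle libraries 1 to 3 first and the TDB libraries 1 to 3 second. The 14 hepatocyte markers summed to 199000 to 227000 CPM in vehicle liver and 52.7 to 83.8 CPM in vehicle tumor, and the 9 mammary epithelium markers to 247 to 332 and 21700 to 25500 CPM. In vehicle liver Krt18 (mean 208 CPM) made up most of the mammary marker sum, and Elf5, Wap and Csn2 had 0 counts. Of 9 interferon-gamma response genes 8 rose in liver and 9 in tumor. Liver TDB 3 stood apart: on the first principal component of liver, which held 63.0% of the variance, it lay at 74.4 and the other livers between -43.7 and 5.8. In it 2.05% of counts were mitochondrial, against 0.847% to 1.28% in the other livers. The between-library variation of a typical gene (common coefficient of biological variation) was 32.3% in liver and 13% in tumor.

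In mice given vehicle most lipogenesis members were higher in tumor and most others higher in liver. Of the 31 genes, 20 were higher in every vehicle liver than in every vehicle tumor, 10 were higher in every vehicle tumor, and the ranges of Cd36 overlapped. The same count was not made over all genes, so it is not known whether these shares are particular to the members. The 10 were Fasn, Scd1, Acaca, Acly, Me1, Srebf1 and Elovl6 of lipogenesis, and Ppargc1a, Acot1 and Lpl. The lipogenesis members Pnpla3, Pklr and Mlxipl were higher in every vehicle liver. Levels of different genes were compared per kb of exon. Fabp1, the fatty acid binding protein of hepatocyte cytoplasm, had the highest vehicle liver level of the 31, at 13900 ± 3100 CPM per kb (SD, n = 3). The thiolase Acaa2 followed at 904 ± 32.5, the gluconeogenic enzyme Fbp1 at 692 ± 86.3 and Pck1, which makes phosphoenolpyruvate, at 375 ± 114 CPM per kb. In vehicle tumor the order was led by lipogenesis: the desaturase Scd1 stood at 471 ± 40.5, Srebf1 at 214 ± 18.5, the NADPH-forming malic enzyme Me1 at 119 ± 25.6 and the ATP citrate lyase Acly at 83.1 ± 14.3 CPM per kb. As CPM is scaled within a tissue, the ratios between tissues are a description with no test.

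**Figure D1:**
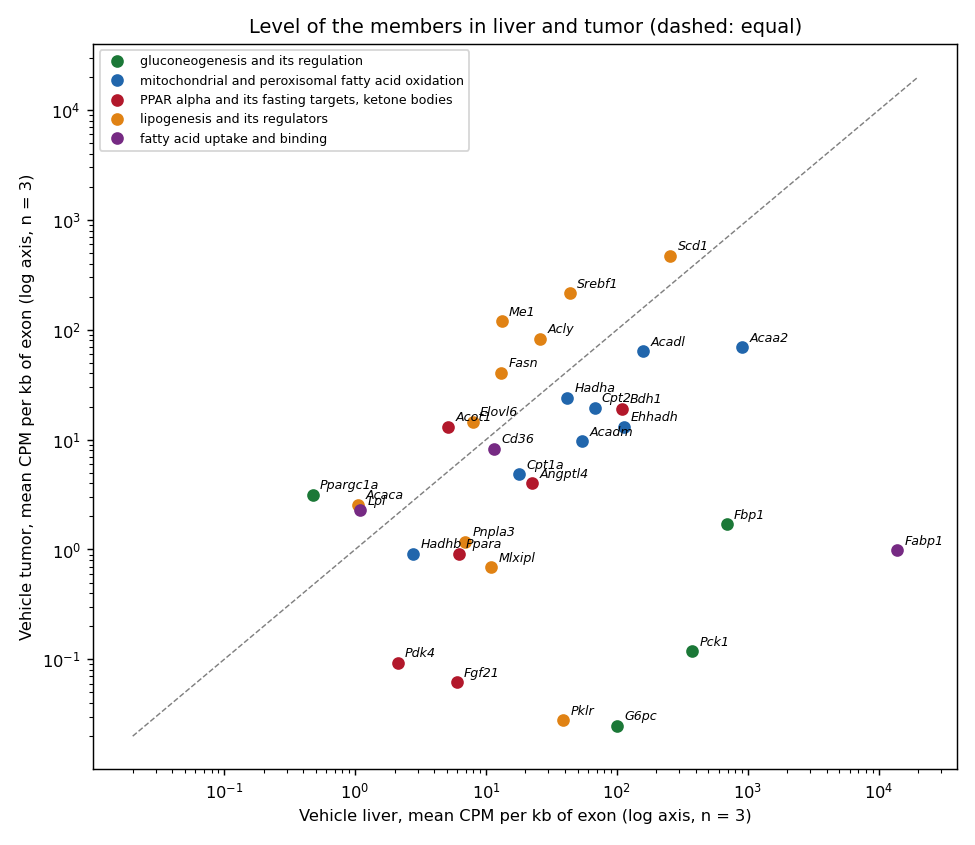
Mean level of the 31 genes in vehicle liver (horizontal, CPM per kb of exon, log axis) and vehicle tumor (vertical, the same unit, log axis), 3 libraries each, colored by role. Scd1, Srebf1, Me1, Acly, Fasn and other genes above the dashed line of equality were higher in tumor, and Fabp1, Pck1, G6pc and Pklr lay far below it.

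5 members had too few counts in tumor to be tested there. Summed over 3 vehicle and 3 TDB tumors, Pck1 had 27 and 3 counts, the glucose-releasing enzyme G6pc 4 and 1, the liver pyruvate kinase Pklr 6 and 2, Fgf21 4 and 6, and Fabp1 36 and 5. No fold is given for them. Tumor vehicle 2 held the highest Pck1 (0.903 CPM) and Fabp1 (1.17 CPM) values, and it also held the highest level of the hepatocyte gene Alb among the tumors, 31.5 CPM against 0.0441 to 8.52 in the others. The part of liver RNA in these counts was not tested.

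Promoters are shown for some of the members for which regulators of this pathway are known: the gluconeogenic pair Pck1 and G6pc, the PPAR alpha target Fgf21, the carbohydrate sensor Mlxipl at both of its RefSeq starts, and the lipid droplet protein Pnpla3. Each runs 5′ to 3′ on the gene's strand from 250 bases before to 50 bases after the start (RefSeq, GRCm38.p6), 300 bases long. Capitals mark TGACGTCA (the cAMP response element), its half-site TGACG or its reverse complement CGTCA, and the E-box CACGTG, whose reverse complement is itself. The half-site lies within the full element and was added to the search after the first matches were seen.
Pck1 (chr2:173152823-173153122, plus strand): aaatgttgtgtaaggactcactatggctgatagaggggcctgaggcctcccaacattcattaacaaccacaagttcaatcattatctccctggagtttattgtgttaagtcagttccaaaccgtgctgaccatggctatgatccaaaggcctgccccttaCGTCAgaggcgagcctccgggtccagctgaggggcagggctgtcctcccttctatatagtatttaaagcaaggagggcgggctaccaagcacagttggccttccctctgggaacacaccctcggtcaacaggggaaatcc
G6pc (chr11:101367466-101367765, plus strand): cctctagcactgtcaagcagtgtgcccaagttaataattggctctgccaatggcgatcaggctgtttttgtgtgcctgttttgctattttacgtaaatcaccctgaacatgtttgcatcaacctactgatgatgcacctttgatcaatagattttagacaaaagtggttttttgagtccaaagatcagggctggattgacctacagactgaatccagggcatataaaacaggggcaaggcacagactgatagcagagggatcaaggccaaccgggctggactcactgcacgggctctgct
Fgf21 (chr7:45615441-45615740, minus strand): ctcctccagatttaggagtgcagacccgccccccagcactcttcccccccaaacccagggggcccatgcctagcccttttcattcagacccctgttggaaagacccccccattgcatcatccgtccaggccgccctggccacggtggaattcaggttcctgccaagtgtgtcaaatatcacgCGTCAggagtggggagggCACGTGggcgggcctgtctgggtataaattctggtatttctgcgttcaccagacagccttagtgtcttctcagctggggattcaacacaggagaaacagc
Mlxipl, upstream start (chr5:135089640-135089939, plus strand): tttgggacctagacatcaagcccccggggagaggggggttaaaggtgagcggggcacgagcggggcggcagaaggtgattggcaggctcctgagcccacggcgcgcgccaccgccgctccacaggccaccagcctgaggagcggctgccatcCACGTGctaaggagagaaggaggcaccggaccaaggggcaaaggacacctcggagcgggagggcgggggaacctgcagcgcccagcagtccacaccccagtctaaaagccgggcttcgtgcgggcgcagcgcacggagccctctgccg
Mlxipl, downstream start (chr5:135106641-135106940, plus strand): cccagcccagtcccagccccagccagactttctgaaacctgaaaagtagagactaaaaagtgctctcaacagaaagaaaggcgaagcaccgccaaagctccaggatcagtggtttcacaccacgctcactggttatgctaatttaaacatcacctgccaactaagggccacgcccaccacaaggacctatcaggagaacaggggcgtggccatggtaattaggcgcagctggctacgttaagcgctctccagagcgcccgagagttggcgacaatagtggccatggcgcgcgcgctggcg
Pnpla3 (chr15:84167566-84167865, plus strand): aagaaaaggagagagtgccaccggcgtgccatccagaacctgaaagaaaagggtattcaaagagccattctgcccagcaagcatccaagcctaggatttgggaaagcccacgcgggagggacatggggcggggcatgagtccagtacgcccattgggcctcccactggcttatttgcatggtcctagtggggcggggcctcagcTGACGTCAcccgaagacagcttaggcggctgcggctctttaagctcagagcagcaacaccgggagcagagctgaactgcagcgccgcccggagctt

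The promoter table held 27 of the 31 genes, with 33 promoters, out of 32851 mouse promoters searched on both strands. The full cAMP element was present in Pnpla3 among members and in 1.79% of all promoters. The half-site was present in 7 members (Acadm, Ehhadh, Fgf21, Pck1, Pnpla3, Ppara and Ppargc1a) and in 20.8% of all promoters. The E-box was present in 2 members, Fgf21 and the upstream start of Mlxipl, and in 7.15% of all promoters. Neither the sterol regulatory element TCACCCCAC (0.551% of all promoters) nor an exact PPAR element of 2 AGGTCA half-sites 1 base apart (0.0396%) was present in a member. These are matches of letters in a short window, and the counts do not tell which start of Mlxipl was used. Of the genes shown, Mlxipl and Pnpla3 were called, both in tumor, and Pck1, G6pc and Fgf21 were not called in the reported fits. Of members called in tumor and not shown, Acadm and Ppargc1a held the half-site, and Elovl6 and Bdh1 held no match.

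In liver the antibody comparison asked which of these genes differed 24 h after the dose. Lpl alone was called among the 31, and it rose. None was called lower by edgeR, while DESeq2 called 2 lower (G6pc and Acot1) and limma-voom with library quality weights called 11. Over all genes those tools called 60 and 1276 lower, where edgeR called 3. Over all 13657 genes tested, 0.513% were called higher and 0.022% lower. At an unadjusted p under 0.05, Lpl was higher and 5 members (G6pc, Acot1, Fgf21, Angptl4 and Acadm) were lower, where 5.84% of all genes were higher and 2.25% lower. The 3 TDB libraries lay above the 3 vehicle libraries for 1 member (all genes 9.11%) and below them for 6 (all genes 5.46%), the 5 just named and Acaa2. The median log2 fold change of the 31 was -0.17 (all genes 0.04), and 19 of 31 (61.3%) were below 0 (all genes 45.8%). In bulk tissue fewer cells of a type and less RNA per cell cannot be told apart. The 14 hepatocyte markers had a median log2 fold change of -0.48, none was called, and they summed to 144000 to 182000 CPM in TDB liver. Alb was the largest part of that sum, at a mean of 127000 CPM with vehicle and 85500 CPM with TDB. Fgb (0.67, SE 0.22) was higher in every TDB liver, and Hpx (0.62, SE 0.44) and Cps1 (0.25, SE 0.34) were also above 0. The part of these shifts in the members' values was not tested.

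Lpl encodes lipoprotein lipase, which releases fatty acids from circulating triglycerides and is low in adult hepatocytes (ENSMUSG00000015568, chromosome 8, 68880491 to 68907448). It was at 11.2, 11.9 and 11.1 CPM in vehicle livers and at 24.8, 30.5 and 35.5 CPM in TDB livers. The groups did not overlap, and the vehicle livers lay within 1 CPM of each other. The log2 fold change was 1.41 (SE 0.22, adjusted p = 0.048). The call sat at the threshold: it was kept in 8 of 17 alternative settings and in 2 of 6 fits that each left out 1 library, with adjusted p up to 0.36, and it was lost without liver vehicle 1, 2 or 3 or liver TDB 2. The log2 fold change stayed between 1.29 and 1.53 in these 6 fits, and without liver TDB 3 it was 1.29 (adjusted p = 0.019). Macrophages are a known source of Lpl. In liver the 9 monocyte and macrophage markers summed to 266 to 325 CPM with vehicle and 302 to 348 CPM with TDB, and none was called. Lyz2 made up most of that sum, and Ccr2 (log2 fold change 1.79, SE 0.44) and Cd68 (0.64, SE 0.24) were higher in every TDB liver. Itgam (-0.37, SE 0.61), Cd14 (-0.43, SE 0.30) and Mrc1 (-0.28, SE 0.30) were below 0. The median log2 fold change of the 9 was 0.13. Of 5 Kupffer cell markers Marco alone was called (2.75), while Clec4f (-0.75, SE 0.35) and Vsig4 (-0.91, SE 0.23) were lower in every TDB liver. Timd4 (0.87, SE 0.19) was higher in every TDB liver, and Cd5l (0.45, SE 0.26) overlapped. The part of the macrophage and Kupffer cell markers in the Lpl value was not tested.

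G6pc encodes glucose-6-phosphatase, the last step of glucose release (ENSMUSG00000078650, chromosome 11, 101367561 to 101377903). It was at 313, 200 and 212 CPM with vehicle and at 77.3, 72.9 and 149 CPM with TDB. Each TDB liver was below each vehicle liver, and liver TDB 3 was the closest to them. The log2 fold change was -1.28 (SE 0.34) and was not called (adjusted p = 0.25), but without liver TDB 3 it was -1.68 (SE 0.25, adjusted p = 0.019). Pck1, the committing enzyme of gluconeogenesis, did not show such a gap. Its values were 1510, 832 and 1510 CPM with vehicle and 794, 914 and 1730 CPM with TDB (log2 fold change -0.17, SE 0.37, and -0.59, SE 0.29, without liver TDB 3). Fbp1, fructose-1,6-bisphosphatase, was at 1170, 1330 and 1030 against 1110, 999 and 765 CPM, and the groups overlapped. The coactivator Ppargc1a had its highest liver value, 7.14 CPM, in liver TDB 3 and lay between 2.29 and 4.03 CPM in the 5 other livers.

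Of PPAR alpha and its fasting targets, 3 (Acot1, Fgf21 and Angptl4) were lower in every TDB liver and 3 overlapped, and none was called. Acot1 encodes a cytosolic acyl-CoA thioesterase that fasting is known to raise. It was at 20.8, 11.5 and 28.1 CPM with vehicle and at 7.92, 6.41 and 7.1 CPM with TDB, all TDB livers below all vehicle livers. This gave the lowest log2 fold change of the 31, -1.49 (SE 0.35, adjusted p = 0.18). The vehicle livers differed more among themselves than the TDB livers did. Fgf21 was at 6.72, 5.82 and 4.47 against 3.62, 2.79 and 2.69 CPM (log2 fold change -0.90, SE 0.28, adjusted p = 0.36). Angptl4, a secreted inhibitor of lipoprotein lipase, was at 105, 70.5 and 64.4 against 58.1, 42.3 and 37.3 CPM (log2 fold change -0.80, SE 0.27, adjusted p = 0.44). Neither group pair overlapped, and the gap was narrow for both, between 4.47 and 3.62 CPM and between 64.4 and 58.1 CPM. Bdh1, the last enzyme of ketone body formation, overlapped between the groups (log2 fold change -0.26, SE 0.20), as did Pdk4, the kinase that holds back pyruvate oxidation (0.24, SE 0.40).

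Ppara itself depended on 1 library. It was at 26, 16.4 and 28.8 CPM with vehicle, at 15.2 and 18.5 CPM in liver TDB 1 and 2, and at 78.2 CPM in liver TDB 3. The log2 fold change was 0.65 (SE 0.61) with that library and -0.49 (SE 0.27) without it, neither called.

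The oxidation enzymes lay slightly below 0. Of 8, 7 had a log2 fold change below 0, from -0.52 to 0.08, and none was called. Acadm, the medium-chain acyl-CoA dehydrogenase, was at 209, 195 and 233 CPM with vehicle and at 163, 143 and 153 CPM with TDB, without overlap (log2 fold change -0.47, SE 0.18, adjusted p = 0.52). Acaa2, which cleaves off acetyl-CoA, was at 1360, 1420 and 1330 against 1290, 955 and 795 CPM, with liver TDB 1 just under the vehicle range (log2 fold change -0.44, SE 0.23). Cpt1a, the carnitine transferase that admits fatty acids to mitochondria, ranged from 70.1 to 188 CPM with vehicle and from 85.6 to 241 CPM with TDB. Its partner Cpt2, the long-chain dehydrogenase Acadl and Hadha, a subunit of the trifunctional protein, lay between -0.18 and -0.08, and its other subunit Hadhb at -0.34 (SE 0.25). The peroxisomal enzyme Ehhadh was at 345, 245 and 424 against 240, 165 and 303 CPM and overlapped (log2 fold change -0.52, SE 0.30).

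Many lipogenesis genes of liver were high in liver TDB 3. Fasn, fatty acid synthase, was at 137, 136 and 153 CPM with vehicle, at 119 and 148 CPM in liver TDB 1 and 2, and at 396 CPM in liver TDB 3. Scd1 was at 1630, 937 and 1190 against 897, 963 and 2310 CPM in the same order. Acaca, acetyl-CoA carboxylase, reached 37.1 CPM in liver TDB 3 and 14.6 to 21.3 CPM in the 5 other livers. Acly, Srebf1 and the elongase Elovl6 also had their highest liver value there, at 207, 371 and 88.5 CPM. With the library the 10 lipogenesis members had a median log2 fold change of 0.09 with 3 of 10 below 0, and without it -0.18 with 9 of 10 below 0. None of the 10 was called in either fit. Mlxipl (log2 fold change 0.00, SE 0.25), Pklr (-0.17, SE 0.23), Me1 (-0.19, SE 0.23) and Pnpla3 (0.00, SE 0.36) were near 0. Of the uptake genes, Fabp1 had a log2 fold change of -0.74 (SE 0.37) and the fatty acid translocase Cd36 one of -0.17 (SE 0.22), and neither was called.

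Over all 31, liver TDB 3 held the highest of the 6 liver values for 13 members and the lowest for 8. The log2 ratio of liver TDB 3 to the mean of the other TDB livers was above 0 for 20 members and below 0 for 10, and it went with exon length across the 31 (Spearman rho 0.5, across genes of 1 library, which are not independent). These counts of members were not made over all genes, so it is not known whether they are particular to the members. Over all genes tested, the deviation of liver TDB 3 from the mean of the other TDB livers went with exon length at a Spearman rho of 0.63. Taken alike within its own group, rho was -0.59 for liver TDB 1, -0.48 for liver TDB 2, 0.47 for liver vehicle 3 and -0.45 for liver vehicle 2. A relation with length was thus not confined to liver TDB 3, although liver TDB 1 and 2 were set against a mean that included it. Fabp1 (553 bases of exon) was low in it, at 2420 CPM against 4760 and 6580 CPM in the other TDB livers and 6330 to 9610 CPM with vehicle, and Acaca (17074 bases) was high. Without liver TDB 3, 29 of 31 members (93.5%) were below 0, where 51.7% of all genes were, the median was -0.21 (all genes -0.01), and Lpl and G6pc were called. The cause of the difference between this library and the others was not tested.

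**Figure D2:**
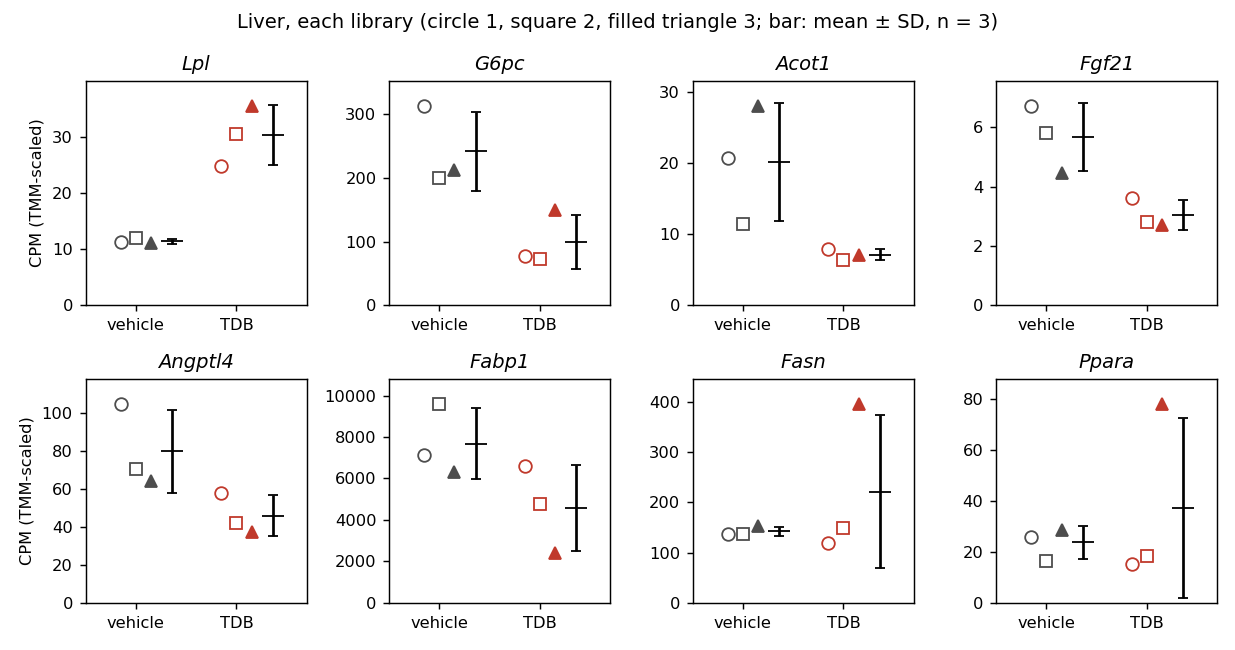
CPM of 8 members in each liver library, vehicle (grey) and TDB (red), with circles for library 1, squares for 2 and filled triangles for 3, and mean ± SD (n = 3). Lpl, G6pc, Acot1, Fgf21 and Angptl4 do not overlap between the groups, while Fasn and Ppara are high in liver TDB 3 only (396 and 78.2 CPM).

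**Figure D3:**
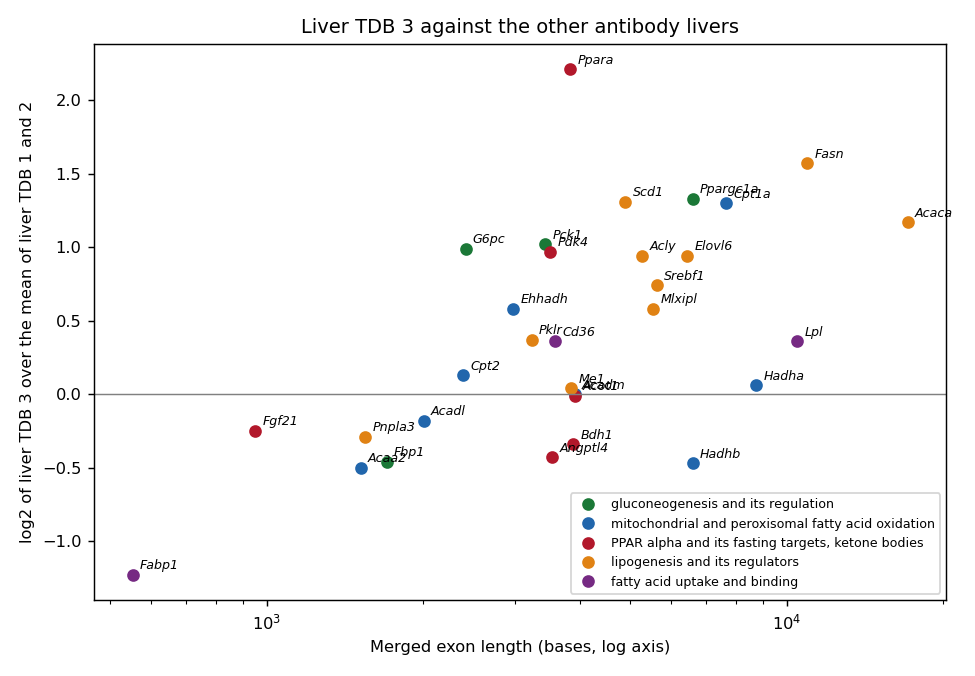
The log2 ratio of liver TDB 3 to the mean of liver TDB 1 and 2 (vertical) against exon length in bases (horizontal, log axis) for the 31 members, colored by role. Short Fabp1 lies lowest, long Acaca and Fasn lie high, and 20 members are above 0 and 10 below.

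In tumor the same comparison gave more calls. Of 26 members tested, 3 rose (Mlxipl, Acadl and Ppargc1a) and 7 fell (Bdh1, Elovl6, Pnpla3, Acaa2, Acadm, Me1 and Scd1). Over all 15454 genes tested 15.8% were called higher and 13.1% lower, so the share of members called higher (3 of 26) was near the background, and 7 of 26 called lower stood beside 13.1%. The TDB tumors lay above all vehicle tumors for 6 members (all genes 23.0%), the 3 called and Acly, Cpt1a and Lpl, and below for 8 (all genes 23.1%), the 7 called and Srebf1. The median log2 fold change of the 26 was 0.07 (all genes -0.02). With upper quartile scaling the balance over all genes turned, with 41.0% of called genes higher in place of 54.7%, and the members called were 2 higher and 8 lower. Cell markers moved too. The 9 monocyte and macrophage markers summed to 352 to 460 CPM with vehicle and 1290 to 1590 CPM with TDB, and 6 of them rose. The 9 T cell markers summed to 1.99 to 3.8 and 13.2 to 20.9 CPM, and 8 rose, while Kdr, Esam and Emcn of 9 endothelial markers fell. The 9 mammary epithelium markers summed to 26400 to 27100 CPM with TDB, most of it from Csn3 (21400 to 22300 CPM). Of them Erbb2 (log2 fold change -0.58) and Krt8 (-0.27) fell, and Wap (1.48) and Csn2 (1.47) rose. The part of these shifts in the members' values was not tested.

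Mlxipl encodes ChREBP, the transcription factor that glucose activates and that drives lipogenesis (ENSMUSG00000005373, chromosome 5, 135089890 to 135138382). It was at 3.43, 4.97 and 3.09 CPM with vehicle and at 11.6, 18.6 and 10.8 CPM with TDB. All TDB tumors were above all vehicle tumors, tumor TDB 2 the highest. It rose by 1.84 on the log2 scale (SE 0.26, adjusted p = 0.0014), 3.59-fold, and was called in each of 17 alternative settings. Its level stayed below that of liver, where it was at 51.3 to 69 CPM with vehicle. Of the enzymes that ChREBP is known to drive, Fasn was at 379, 508 and 450 against 475, 454 and 462 CPM (log2 fold change 0.06, SE 0.11). Fasn was not called, and Pklr was nearly absent and not tested. Acaca (0.18, SE 0.10) and Acly (0.23, SE 0.12) were not called, although Acly was higher in every TDB tumor. Of other known ChREBP targets, Txnip was called higher (0.62, SE 0.12) and Pnpla3 lower (-1.53, SE 0.31). The activity of ChREBP was not tested.

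The other lipogenesis genes of tumor called were lower. Elovl6, which lengthens palmitate to stearate (ENSMUSG00000041220, chromosome 3, 129532355 to 129638495), was at 76.1, 109 and 95.3 CPM with vehicle and 45.1, 35.4 and 47.4 CPM with TDB. The groups were well apart, and the gene fell by 1.13 on the log2 scale (SE 0.16, adjusted p = 0.0014), in each of 17 alternatives too. Pnpla3, a lipid droplet protein that SREBP-1c and ChREBP are known to induce (ENSMUSG00000041653, chromosome 15, 84167837 to 84187236), was low throughout. It was at 2.02, 2.17 and 1.28 CPM with vehicle and 0.707, 0.502 and 0.684 CPM with TDB, and it fell by 1.53 on the log2 scale (SE 0.31, adjusted p = 0.0064), in 16 of 16 alternatives. Me1 was at 410, 395 and 573 against 310, 246 and 355 CPM and fell by 0.60 (SE 0.18, adjusted p = 0.049). Scd1 was at 2530, 2150 and 2230 against 1550, 1460 and 2090 CPM and fell by 0.44 (SE 0.14, adjusted p = 0.049). Both sat at the threshold, kept in 8 and 9 of 17 alternatives, and tumor TDB 3 was the TDB tumor closest to vehicle for both. Srebf1 was at 1240, 1090 and 1290 against 1010, 971 and 1050 CPM, without overlap, and was not called (log2 fold change -0.26, SE 0.09, adjusted p = 0.07).

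The oxidation enzymes of tumor moved in both directions. Acadl, which acts on long chains, was at 131, 124 and 129 CPM with vehicle and 165, 211 and 179 CPM with TDB, and rose by 0.53 (SE 0.09, adjusted p = 0.0029). Acaa2 was at 118, 100 and 98 against 69.9, 67.5 and 74.5 CPM and fell by 0.58 (SE 0.09, adjusted p = 0.0014). Acadm was at 40.5, 33.9 and 39.5 against 31.6, 32.1 and 28.8 CPM and fell by 0.30 (SE 0.09, adjusted p = 0.04). The first pair of these was kept in 16 of 17 alternatives each and lost in the fit over 12 libraries, and Acadm was kept in 9. Cpt1a had its TDB tumors, at 40.6, 46.9 and 57.2 CPM, above the vehicle tumors, at 39.6, 31.4 and 39.6 CPM, by 1 CPM at the closest (log2 fold change 0.39, SE 0.14, adjusted p = 0.075). Cpt2 (-0.01, SE 0.08), Hadha (0.07, SE 0.07), Ehhadh (-0.14, SE 0.08) and Hadhb (0.16, SE 0.19) were not called.

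Bdh1, which interconverts the ketone bodies acetoacetate and 3-hydroxybutyrate (ENSMUSG00000046598, chromosome 16, 31422280 to 31458901), had the smallest adjusted p of the members in tumor. It was at 75.5, 67.6 and 79.3 CPM with vehicle and at 32.4, 28.1 and 41.7 CPM with TDB. No TDB tumor reached the vehicle range, and the gene fell by 1.12 on the log2 scale (SE 0.14, adjusted p = 0.00071), in each of 17 alternatives. Ppargc1a was at 20.1, 21 and 21.3 against 25.5, 28.3 and 24.6 CPM and rose by 0.33 (SE 0.09, adjusted p = 0.023), kept in 10 of 17 alternatives. Pdk4 was low and scattered, at 0.183, 0.0903 and 0.706 CPM with vehicle and 0.377, 1.29 and 2.59 CPM with TDB, so its log2 fold change of 2.08 had an SE of 0.86 (adjusted p = 0.11). Ppara (-0.02, SE 0.24), Acot1 (0.21, SE 0.12) and Angptl4 (0.37, SE 0.58) were not called. Fbp1 was at 2.9 ± 0.629 CPM with vehicle and 2.81 ± 0.657 CPM with TDB (SD, n = 3).

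Of the uptake genes, Lpl was at 24.9, 19.4 and 27.6 CPM with vehicle and 36.2, 28.3 and 52 CPM with TDB. The groups were apart by less than 1 CPM, and the log2 fold change of 0.69 (SE 0.24) was not called (adjusted p = 0.078). Cd36 was at 46.2, 21.8 and 21.4 against 35.6, 40.2 and 60.1 CPM and overlapped through tumor vehicle 1. Both are known in fat cells. Of 8 adipocyte markers 7 had 0 counts in all vehicle tumors, against 4 of 8 in all TDB tumors. The markers that left 0, Adipoq, Plin1 and Cfd, held only 1 count each over the TDB tumors. The eighth marker, Cidea, carried nearly all of a sum that was 12.9 to 23.8 CPM with vehicle and 10.2 to 13.7 CPM with TDB.

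**Figure D4:**
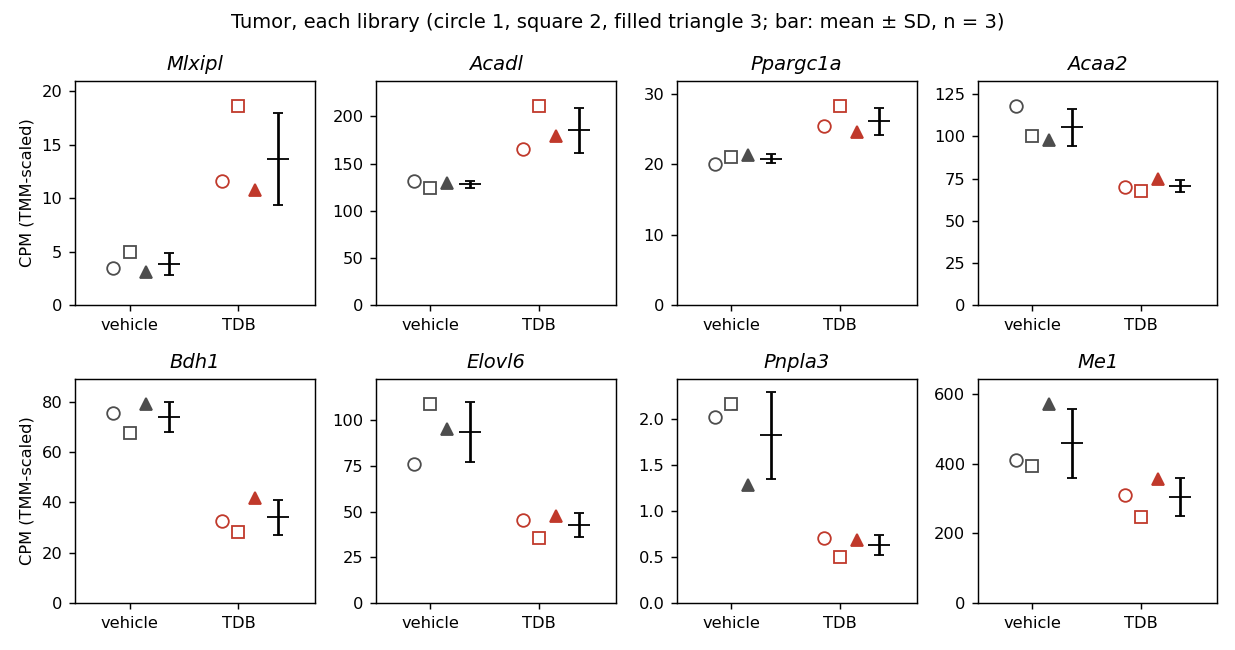
CPM of 8 members in each tumor library, vehicle (grey) and TDB (red), circles for library 1, squares for 2 and filled triangles for 3, with mean ± SD (n = 3). Mlxipl, Acadl and Ppargc1a are higher in all TDB tumors, and Acaa2, Bdh1, Elovl6, Pnpla3 and Me1 are lower in all of them.

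Whether an effect differed between the tissues was tested directly, as the tumor effect minus the liver effect over the 12 libraries. Livers and tumors came from the same 3 mice per treatment by the design text, but no label ties a library to a mouse, so the test took the libraries as unpaired. With the library number as a replicate block 0 members were called. 2 members passed, both with the tumor effect higher, and none with it lower by edgeR (2 by DESeq2, Elovl6 and Bdh1, beside 3 higher, with Acadl), against 1.83% and 0.658% of 16557 genes. The median difference over all genes was -0.12. For Mlxipl the difference was 1.80 (SE 0.38, adjusted p = 0.027), from the tumor rise beside liver values of 62.2, 51.3 and 69 with vehicle and 57.5, 47.3 and 78.1 CPM with TDB. For Acot1 it was 1.66 (SE 0.38, adjusted p = 0.041), although neither tissue's own effect was called: the liver effect was -1.49 and the tumor effect 0.21, with tumors at 57.8, 44.5 and 51.4 against 51.7, 65.8 and 59.7 CPM. The Mlxipl difference was called in 13 of 20 alternatives and in 6 of 12 fits that each left out 1 library, and the Acot1 difference in 10 of 20 and 3 of 12. Elovl6 (-1.42, SE 0.39, adjusted p = 0.096), Pnpla3 (-1.58, SE 0.48, adjusted p = 0.14) and Bdh1 (-0.91, SE 0.26, adjusted p = 0.12), called in tumor alone, were not shown to differ from liver. The same holds for Lpl (-0.75, SE 0.32, adjusted p = 0.34), called in liver only, and for Acadl (0.57, SE 0.22, adjusted p = 0.27).

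**Figure D5:**
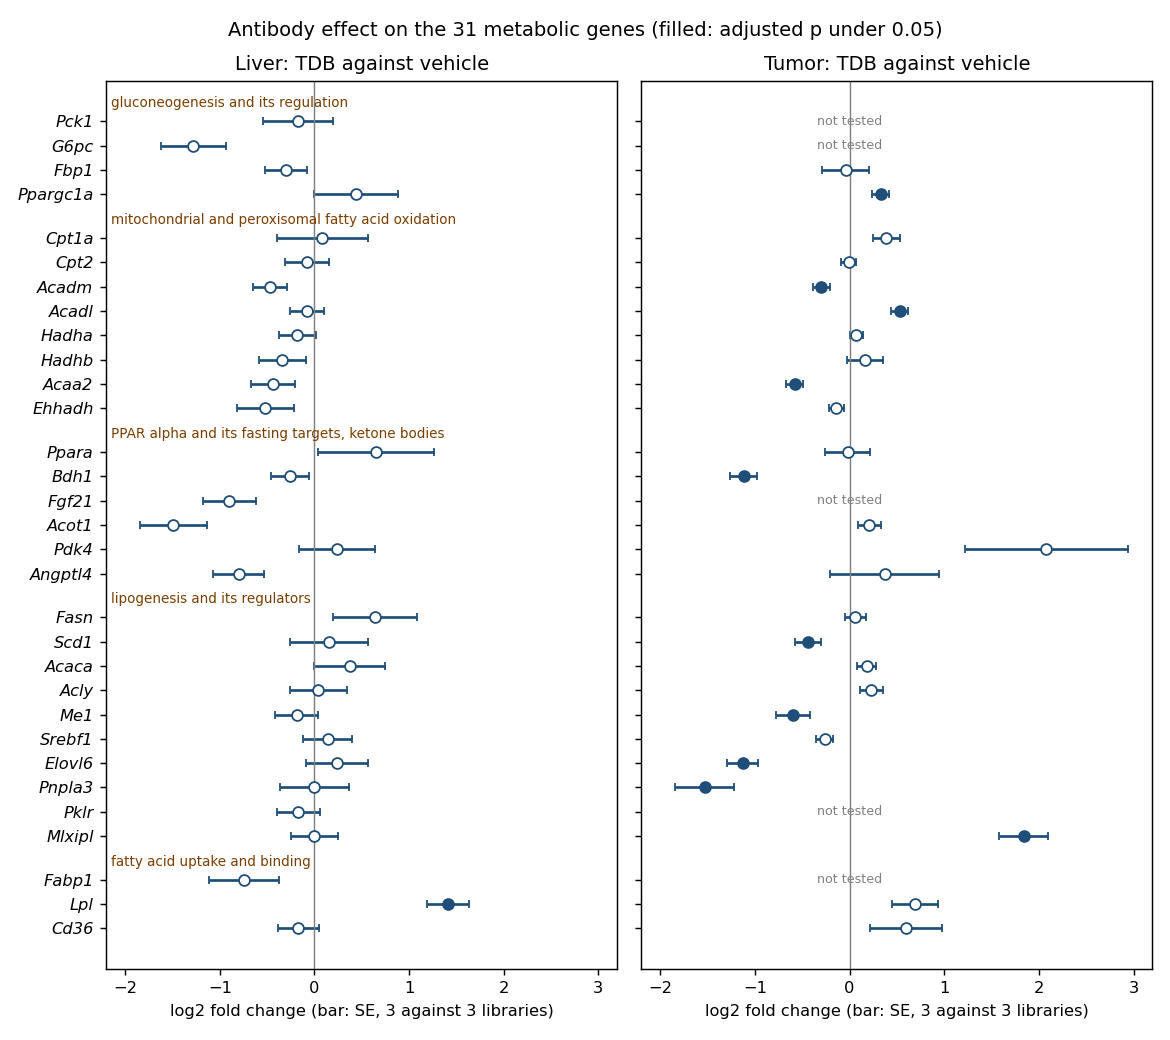
Log2 fold change of TDB over vehicle with its SE for the 31 members, by role, in liver and in tumor (3 against 3 libraries each). Filled points passed an adjusted p under 0.05: Lpl in liver, and 3 higher and 7 lower genes in tumor, with 5 members not tested in tumor.

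The other genes of these pathways were counted in the same fits. In liver none of the 7 lists had a called gene in either direction: 0 of 18 for mitochondrial oxidation, 0 of 13 peroxisomal, 0 of 6 for ketone bodies, 0 of 20 for lipogenesis and triglyceride synthesis, 0 of 24 for gluconeogenesis and glycogen, 0 of 29 for lipid storage, uptake and lipolysis, and 0 of 22 for PPAR coregulators and targets. Their median log2 fold changes in liver lay between -0.39 (peroxisomal) and -0.12, all below the 0.04 of all genes. At an unadjusted p under 0.05, 4 of the 131 genes of these lists were higher and 10 lower (all genes 5.84% and 2.25%). After adjustment DESeq2 called 1 higher and 2 lower, and limma-voom with library quality weights called 9 higher and 51 lower. Pparg, the fat cell PPAR receptor, was at 5.78, 4.31 and 6.31 against 7.84, 10.8 and 8.64 CPM, without overlap and not called (log2 fold change 0.73, SE 0.27, adjusted p = 0.48).

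In tumor the same lists held calls in both directions, 15 higher and 20 lower of 105 genes (all genes 15.8% and 13.1%). Mitochondrial oxidation had 3 higher and 3 lower of 18, with the acyl-CoA synthetase Acsl5 up by 0.56 (SE 0.07) and its relative Acsl3 at -0.71 (SE 0.09), and the electron carrier subunit Etfb at -0.30 (SE 0.09). The peroxisomal list had 1 higher and 2 lower of 9, Pex11a (0.39) and Acox2 (-0.32) and Abcd3 (-0.31). Of 6 ketone body genes, the transporter gene Slc16a6 rose (0.59) and Oxct1, which starts the use of ketone bodies, fell (-0.37), beside the fall of Bdh1. Oxct1 was at 376, 352 and 301 CPM with vehicle and 282, 247 and 270 CPM with TDB. In liver it was at 7.38, 7.56 and 6.21 against 13.1, 17.6 and 16.9 CPM, and the difference between the tissues was called (-1.58, adjusted p = 0.0032).

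Lipogenesis and triglyceride synthesis had 2 higher and 4 lower of 20 in tumor. The phosphatidate phosphatase Lpin2 (0.51) and the oxysterol receptor Nr1h3 (1.03) rose, and Insig1, which retains SREBP proteins and is itself an SREBP target, fell (-0.55). The glucose and glycogen list had 3 higher and 5 lower of 18. It held a pair of glycogen-targeting subunits of protein phosphatase 1 that moved in opposite directions. Ppp1r3b was at 3.76, 2.53 and 4.72 CPM with vehicle and 10.2, 15.2 and 11.4 CPM with TDB (log2 fold change 1.74, SE 0.24, adjusted p = 0.001). Ppp1r3c was at 33.5, 40.5 and 39.7 against 13.7, 11 and 17.3 CPM (log2 fold change -1.44, SE 0.16, adjusted p = 0.00035). Both effects differed from those in liver, by 1.88 (adjusted p = 0.03) and -1.21 (adjusted p = 0.026). Pck2, the mitochondrial form of the Pck1 enzyme, fell (-0.53, SE 0.08).

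The lipid storage list had 3 higher and 3 lower of 17 in tumor, and its members with the smallest p belong to lipolysis. G0s2, an inhibitor of the triglyceride lipase ATGL, was at 151, 138 and 121 CPM with vehicle and 56.6, 64.7 and 68.2 CPM with TDB (log2 fold change -1.11, SE 0.10, adjusted p = 8.1e-05). Pnpla2, which encodes ATGL, was at 174, 135 and 146 against 221, 249 and 239 CPM (0.64, SE 0.10, adjusted p = 0.0018). Lipe, hormone-sensitive lipase, was at 21.3, 18.7 and 21.3 against 37.5, 42.2 and 36.8 CPM (0.93, SE 0.09, adjusted p = 0.00014). For all 3 the groups were apart. Plin2, which coats lipid droplets, rose as well (0.62, SE 0.15, adjusted p = 0.014), while the fat cell binding protein Fabp4 was not called (0.12, SE 0.34). The PPAR list had 2 higher and 2 lower of 18: Txnip, a known ChREBP target, rose (0.62, SE 0.12), as did the coactivator Ppargc1b (0.80, SE 0.21), and the mitochondrial deacetylase Sirt3 fell (-0.68, SE 0.10).

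Counts of some members are uncertain because near-identical copies exist in the genome. Of the Hadhb transcript, 69.7% is matched by the copy Gm13910 at 99.8% identity, and Gm13910 was itself at 19.2 CPM in vehicle liver, beside 18.3 CPM for Hadhb. Hadhb stood at 2.77 CPM per kb there, and Hadha, which encodes the partner subunit of the same protein complex, at 41.7. For Acaca 64.3% is matched by Gm5182, for Acot1 56.1% by Acot2 and for Me1 49.8% by Gm7049. Acot2 had a log2 fold change of -0.11 (SE 0.30) in liver, and Gm7049 one of -0.49 (SE 0.20, adjusted p = 0.11) in tumor. In tumor Gm5182 was called higher (0.28, SE 0.09, edgeR adjusted p = 0.038). Its mean was 31.6 CPM in vehicle tumor, beside 43.8 CPM for Acaca. The division of reads between Acaca and Gm5182 was not tested. Exons of Pklr and Bdh1 share 22.0% and 13.7% of their length with the opposite-strand genes Hcn3 and Gm15743, which held 43 and 15 counts over the 12 libraries.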

How the data were processed

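Bulk RNA libraries of liver and tumor were assigned to 4 groups by tissue and treatment from their titles, and 3 mice were used per treatment by the series' design text, so p-values measure the spread between mice. The authors deposited whole-number counts per Ensembl gene, not normalized, and a table of FPKM values. GSNAP, limma and GRCm38 are named per the submitters' processing notes, with the counter, strand setting and annotation release not given in the sources used here. Whether overlapping genes on opposite strands share reads is therefore unknown. GENCODE M21 gave symbols, positions and exon lengths for 52489 identifiers, and 147 stayed unmatched.

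Counts were tested with edgeR 4.0.16 (TMM scaling, filterByExpr with a minimum count of 10 and total of 15, robust quasi-likelihood test) within each tissue, and the difference of the effects over 12 libraries with 4 group means, after a test on simulated data. Adjustment was by Benjamini and Hochberg over all genes tested, with a threshold of 0.05. Alternatives were median-of-ratios and upper quartile scaling, no filter, a minimum count of 50, DESeq2 1.42.0, limma-voom 3.58.1 with and without quality weights, a replicate block, each library left out, 1 fit over 12 libraries, and limma on log2 of the deposited FPKM plus 1 or 0.1, which shrinks fold changes of weakly expressed genes. Copies of member transcripts were sought with BLAST 2.17.0 (at least 95% identity over 75 bases).

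The members and the lists of pathway genes and markers were chosen with earlier results of these data known. All 31 members are accounted for; members called, or at an unadjusted p under 0.05, are given by library. Of each pathway list at most the 3 called genes with the smallest p are named, besides Pparg, Plin2 and Fabp4 (3 further genes fixed by role are not reported here), and of each marker list only genes on which a value turns. Same-numbered libraries were checked for pairing and treated as unpaired.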

Additional observations from a re-analysis of the deposited data

Results flagged for a closer look

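The antibody effect on 2 members differed between the tissues in the interaction test over the 12 libraries. For Mlxipl the tumor effect exceeded the liver effect by 1.80 on the log2 scale (SE 0.38, edgeR adjusted p = 0.027). For Acot1 it did so by 1.66 (SE 0.38, edgeR adjusted p = 0.041). Acot1 transcripts match Acot2 over 56.1% of their length, and the division of reads between the pair was not tested.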

How the results depend on the processing

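Over the alternatives, 450 of 527 liver values of members, 377 of 440 in tumor and 114 of 140 differences kept their direction and their side of the threshold. A call was lost in 9, 33 and 17 of them and gained in 16, 17 and 9, and the sign changed in 52, 13 and 0. The differences cover only the 7 members at an unadjusted p under 0.05 in the edgeR interaction test. That choice itself makes sign changes unlikely, so the 0 says nothing of the other members. With 1 library left out, other differences crossed 0, such as G6pc from -1.79 to 0.83 and Ppara from -1.06 to 0.51. Mlxipl, Bdh1, Elovl6 and Pnpla3 in tumor kept their call in every alternative run. The cause of the changes given here was not tested.

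Genes called higher in liver (70) numbered 133 without a filter, 292 by DESeq2, 1783 by limma-voom with quality weights, 282 in the fit over 12 libraries and 25 by limma on log2(FPKM + 1). Those called lower (3) numbered 5 with upper quartile scaling and 12, 60, 1276, 41 and 1 in the order just given. Leaving out 1 library gave 14 to 151 higher and 0 to 12 lower, the most without liver TDB 3. Members called higher in liver (1) were 0 with median-of-ratios and upper quartile scaling, limma-voom and both FPKM scales, and 0 to 1 with a library left out. Members called lower (0) were 2 by DESeq2, 11 with quality weights, 1 in the fit over 12 libraries and 0 to 1 with a library left out (1 without liver TDB 3).

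In tumor, genes called numbered 1068 higher and 627 lower in the fit over 12 libraries, and 1797 to 2717 higher and 1145 to 2143 lower with a library left out, the fewest without tumor TDB 2. Members called higher (3) were 6 by DESeq2 and 1 in the fit over 12 libraries, and 3 to 4 with a library left out. Members called lower (7) were 3 in the fit over 12 libraries and 4 to 7 with a library left out, 4 without tumor vehicle 1, tumor TDB 1 or tumor TDB 2. Ppargc1a lost its call without tumor vehicle 1 or tumor TDB 1 or 2, Acadm without any 1 library but tumor vehicle 2, Scd1 without any but tumor TDB 3, and Me1 without tumor vehicle 1 or 3 or tumor TDB 1 or 2. Cpt1a gained one without tumor TDB 1, Lpl without tumor TDB 2, Pdk4 without tumor vehicle 3 or tumor TDB 1, Cd36 without tumor vehicle 1, and Srebf1 (lower) without tumor vehicle 2. Of the 5 members with too few counts for the tumor test, Fabp1 passed the filter in 4 fits with 1 library left out. It held 36 counts with vehicle and 5 with TDB, so it passed only through the vehicle tumors. In 1 of these fits, without tumor vehicle 3, it was called lower, but tumor vehicle 3 was the vehicle tumor at 0 CPM. No effect is read from these fits.

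For the difference, DESeq2 gave 582 higher and 315 lower and quality weights 1796 and 2004. With a library left out there were 196 to 525 higher and 45 to 177 lower. The 2 members called higher were 7 with quality weights and 0 to 2 with a library left out: 0 without liver vehicle 1 or 3, liver TDB 2, tumor vehicle 1 or 3, or tumor TDB 2, and Mlxipl alone without tumor vehicle 2 or tumor TDB 1 or 3. Members called lower (0) were 2 by DESeq2, 3 with quality weights and 0 to 1 with a library left out.

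Same-numbered libraries come from different mice across treatments, and their deviations correlated at -0.12, 0.53 and 0.66 in liver and 0.07, 0.03 and 0.31 in tumor, so the numbers were not taken as pairs. Across tissues same-numbered libraries correlated at -0.04, -0.06 and 0.11 with vehicle and 0.05, 0.04 and 0.12 with TDB. With the replicate block 291 genes were higher and 59 lower in liver (members 1 and 2), 2525 and 2097 in tumor (members 6 and 6), and 216 and 42 for the difference (members 0 and 0). Not every library correlated best with its own number.

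Signs changed only for members that were not called in the reported fit. With quality weights the liver log2 fold changes were -0.46 for Ppara, -0.06 for Ppargc1a, -0.47 for Cpt1a, -0.61 for Scd1, -0.17 for Acly, -0.25 for Srebf1, 0.29 for Pnpla3, -0.35 for Mlxipl and -0.16 for Pdk4. On log2(FPKM + 1) they were -0.02 for Cpt1a, -0.03 for Scd1, -0.08 for Acly and -0.06 for Mlxipl, and on log2(FPKM + 0.1) -0.02, -0.03, -0.11 and -0.09, with 0.01 for Pnpla3. Acly in liver was -0.01 with upper quartile scaling and in the fit over 12 libraries, and -0.04 with limma-voom and the replicate block. Pnpla3 in liver was 0.10 with limma-voom and 0.09 with the replicate block. Mlxipl in liver was -0.05 with upper quartile scaling, -0.04 in the fit over 12 libraries, -0.02 with median-of-ratios scaling, DESeq2, limma-voom and the replicate block, and -0.01 without a filter or with a minimum count of 50. In tumor Fasn was -0.01 with upper quartile scaling and -0.03 in the fit over 12 libraries, Hadha -0.01 in that fit, and Cpt2 0.00 with median-of-ratios scaling and DESeq2.

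With 1 library left out, liver values ran from -0.59 to 0.04 for Pck1, -0.49 to 1.02 for Ppara, -0.14 to 0.69 for Ppargc1a, -0.48 to 0.38 for Cpt1a, -0.25 to 0.07 for Cpt2, -0.08 to 0.93 for Fasn, -0.43 to 0.38 for Scd1, -0.12 to 0.59 for Acaca, -0.34 to 0.26 for Acly, -0.15 to 0.27 for Srebf1, -0.13 to 0.48 for Elovl6, -0.26 to 0.44 for Pnpla3, -0.30 to 0.01 for Pklr, -0.21 to 0.13 for Mlxipl and -0.16 to 0.52 for Pdk4. In tumor they ran from -0.24 to 0.15 for Fbp1, -0.25 to 0.17 for Ppara, -0.05 to 0.04 for Cpt2 and -0.04 to 0.17 for Fasn.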
